A study of Mus musculus with 12 samples.

Results

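Genes of voltage-gated ion channels and of potassium channels were examined in the neocortex of mouse embryos at embryonic day 16. Members were taken by symbol, as rows of the authors' deposited table naming a single gene of the Kcn, Scn (pore and beta subunits), Cacna, Cacnb, Cacng or Hcn families, with 4 symbols left out by the rule. This gave 134 of 23352 genes, of which 91 reached 1 FPKM (fragments per kilobase of transcript, scaled to the size of the library) in at least 1 group. Just inside that limit stood Kcns2, at 1.04 FPKM in its highest group, and just outside Kcnk5, at 0.981 FPKM. One of the 134 rows, Kcnq1ot1, is a non-coding RNA that shares its name with a channel gene and lay under the limit.

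Tissue of 12 libraries was profiled in 4 groups: 2 wild types and 4 homozygous Nfia knockouts of the strain Nfia{tm1Rmg}(C57BL/6), and 2 wild types and 4 homozygous Nfib knockouts of the strain Nfib{tm1Rmg}(C57BL/6). All were microdissected neocortex, and no further allele or treatment is named in the labels. NFIA and NFIB are transcription factors of the nuclear factor I family, and each comparison sets a knockout against the wild types of its own line. The deposited values are 1 average per gene and group, so no value per library, no spread between libraries and no read depth can be given. Separate embryos or litters are not stated for the libraries, so the deposited p-values may measure technical spread alone.

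Ion channels set the resting potential and the firing of neurons. Sodium channels carry the upstroke of the action potential, calcium channels couple it to calcium entry, and potassium channels repolarise the membrane. Pore-forming subunits work with auxiliary subunits that change their gating and their delivery to the membrane. In the embryonic cortex, postmitotic neurons gain these currents gradually as they migrate and grow axons.

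The setting of the 4 groups came first. The level of Nfib was 134 FPKM in its own wild types and 9.12 FPKM in its knockouts (the authors' deposited table gives a log2 fold of -3.86 at q = 0.00207). Nfia stood at 33.7 FPKM in the Nfia-line wild types and 28.2 FPKM in the other group of that line (the authors' deposited table gives a log2 fold of -0.27, q = 0.477), so the latter is called the labelled Nfia knockout throughout. These are whole-gene averages, from which the label could not be checked. In the Nfib line Nfia went from 24.3 to 54.4 FPKM (1.18 as a log2 fold at q = 0.00207 in the authors' deposited table). Its relative Nfix went from 165 to 108 FPKM in the Nfia line (-0.62 at q = 0.00286 there) and did not pass in the Nfib line (q = 0.853). The part of these changes in the channel results was not tested. All 10 neocortex markers, Emx1 and Neurod6 among them, reached 1 FPKM. Of these, 1 was higher and 1 lower in the labelled Nfia knockouts and 4 were higher in the Nfib knockouts (Pax6, Tbr1, Slc17a7 and Bcl11b). Of 10 neuron markers, 1 was higher in the labelled Nfia knockouts and 2 were lower in the Nfib knockouts. Of 10 progenitor markers, 2 were lower in the labelled Nfia knockouts and 1 was higher in the Nfib knockouts. Wild types differed by line in sex-linked transcripts: Xist was at 161 FPKM in the Nfia-line and 0.207 FPKM in the Nfib-line wild types, and 77.0 and 86.0 FPKM in the labelled Nfia and Nfib knockouts. Ddx3y, in the same order, was at 0.0330, 11.5, 7.29 and 5.89 FPKM. These transcripts thus differed within each comparison as well as between the lines, and the part of sex in the folds was not tested. Markers of several other cell types moved in at least 1 comparison. Of 7 microglia markers 0 passed in either, and of 8 vessel markers 0 passed in the labelled Nfia and 1 in the Nfib knockouts. Meningeal and oligodendrocyte lineage markers had 0 past the threshold in the labelled Nfia knockouts. Of 16 ventral forebrain and GABAergic neuron markers, 11 were higher and 0 lower in the labelled Nfia knockouts and 1 was higher and 11 lower in the Nfib knockouts. Their summed level was 255 and 443 FPKM in the Nfia line and 334 and 277 FPKM in the Nfib line, wild types first. The Nfia-line wild types thus had the lowest of the 4 sums. Most of the rise in the Nfia line was Sst, at 101 and 235 FPKM there and 148 and 140 FPKM in the Nfib line. Summed choroid plexus markers went from 2.37 to 99.8 FPKM in the Nfib line and stood at 1.12 and 2.58 FPKM in the Nfia line. Nearly all of the 99.8 FPKM was Ttr, which went from 0.346 to 94.8 FPKM in the Nfib line. Of the 8 choroid plexus markers, 4 were higher and 0 lower in the Nfib knockouts. In the Nfib knockouts 6 of 8 meningeal, 3 of 8 astrocyte and 3 of 5 oligodendrocyte lineage markers were lower. None of these 3 lists had a higher member. Against the Nfia-line wild types, with 0.1 added to each FPKM, most of the lower meningeal markers no longer stood lower. Their log2 ratios were 0.26 for Col1a1, 0.23 for Col1a2, 0.12 for Col3a1, 0.11 for Dcn, 0.79 for Slc6a13 and -0.60 for Lum. Of the lower astrocyte markers Bcan was at -1.64, Slc1a2 at 0.002 and Gja1 at 0.42. Olig1, Olig2 and Pdgfra stayed lower, at -0.62, -0.64 and -0.52. The part of these cell types in the channel results was not tested, and in such bulk tissue fewer cells of a type and less RNA per cell cannot be told apart.

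A set of 3 channel genes was lower in both the labelled Nfia knockouts and the Nfib knockouts, and the sequence before the start of these genes is shown because NFI proteins bind DNA at the half-site TTGGC. They are Kcnj2, a strong inward rectifier that sets the resting potential, Kcnq5, a subunit of the M-current that damps repetitive firing, and Kcne1l, a small accessory subunit of voltage-gated potassium channels. Windows are the 250 bases before the RefSeq transcript start on GRCm38.p6, written on the gene's strand, with matches to TTGGC on either strand (GCCAA on the other) in capitals.
Kcnj2, chr11:111065914-111066163, plus strand: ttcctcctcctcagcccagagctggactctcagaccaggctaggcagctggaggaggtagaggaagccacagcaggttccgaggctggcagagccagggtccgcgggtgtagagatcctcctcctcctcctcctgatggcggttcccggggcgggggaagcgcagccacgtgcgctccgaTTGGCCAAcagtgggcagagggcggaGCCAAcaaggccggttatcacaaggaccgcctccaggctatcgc
Kcne1l, chrX:142306199-142306448, minus strand: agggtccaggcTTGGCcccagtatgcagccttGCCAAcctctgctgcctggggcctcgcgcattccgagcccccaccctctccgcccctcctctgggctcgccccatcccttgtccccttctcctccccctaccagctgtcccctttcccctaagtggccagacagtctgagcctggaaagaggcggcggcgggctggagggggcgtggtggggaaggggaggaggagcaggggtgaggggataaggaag
Kcnq5 first start, chr1:21962651-21962900, minus strand: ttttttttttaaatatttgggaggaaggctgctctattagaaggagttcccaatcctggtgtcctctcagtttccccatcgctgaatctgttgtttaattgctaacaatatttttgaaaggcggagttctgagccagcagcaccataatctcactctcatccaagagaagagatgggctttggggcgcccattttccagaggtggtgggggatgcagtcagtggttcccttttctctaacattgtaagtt
Kcnq5 second start, chr1:21961943-21962192, minus strand: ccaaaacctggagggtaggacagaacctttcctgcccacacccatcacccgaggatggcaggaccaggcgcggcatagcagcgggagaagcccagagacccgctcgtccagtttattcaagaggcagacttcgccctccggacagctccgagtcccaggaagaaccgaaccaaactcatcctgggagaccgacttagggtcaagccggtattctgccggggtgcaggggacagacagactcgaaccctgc
The Kcnj2 window held 3 matches, starting 70, 67 and 44 bases before the start, the first pair overlapping. Kcne1l held 2, starting 239 and 218 bases before the start, and these letters are not in the Kcnq5 windows. Such matches are common: 41.5% of 32851 windows in the RefSeq table held at least 1, against 38 of the 91 windows that belong to 62 of the channel genes at 1 FPKM or more. Of 25 windows of 20 members past the threshold in either comparison, 10 held 1. The full palindrome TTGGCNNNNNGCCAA was in 12 windows of the whole table and in 0 windows of the channel genes.

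In the wild types the channel genes ranged from under 1 FPKM to 92.9 FPKM (Cacnb3, Nfib line). That is near the neuron marker Snap25 (87.2 and 93.7 FPKM) and far under Map2 (314 and 262 FPKM). By the highest of all 4 groups, knockouts included, 12 of the 91 reached 20 FPKM, 37 lay between 5 and 20 FPKM and 42 below 5 FPKM. The highest were auxiliary subunits. Cacng4 and Cacng7, of the transmembrane AMPA receptor regulatory proteins (TARPs), stood at 90.6 and 77.0 FPKM in the Nfia-line wild types, and Cacnb3, the cytoplasmic beta subunit of calcium channels, at 89.4 FPKM. Scn3b, a beta subunit of sodium channels, was at 53.4 FPKM. Cacna1h, of the low-threshold T-type calcium current, was the highest calcium channel pore at 24.8 and 23.1 FPKM. Cacna1e, of the R-type current, followed at 19.6 and 14.5 FPKM, and the beta subunit Cacnb1 was at 26.1 and 25.2 FPKM. Scn3a, the sodium channel pore typical of embryonic brain, was at 18.6 and 16.5 FPKM, above Scn8a, the pore of mature axon initial segments, at 10.9 and 8.77 FPKM. With 1 average a group, the order of neighbours in these levels has no error. The gene listed as Scn2a1, another sodium channel pore, is outside the symbol rule and was chosen after its values were seen. It stood at 15.4 and 13.7 FPKM in the wild types and 15.01 and 9.79 FPKM in the labelled Nfia and Nfib knockouts. The authors' deposited table gives it a log2 fold of -0.46 at q = 0.0365 in the Nfib comparison.

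**Figure D1:**
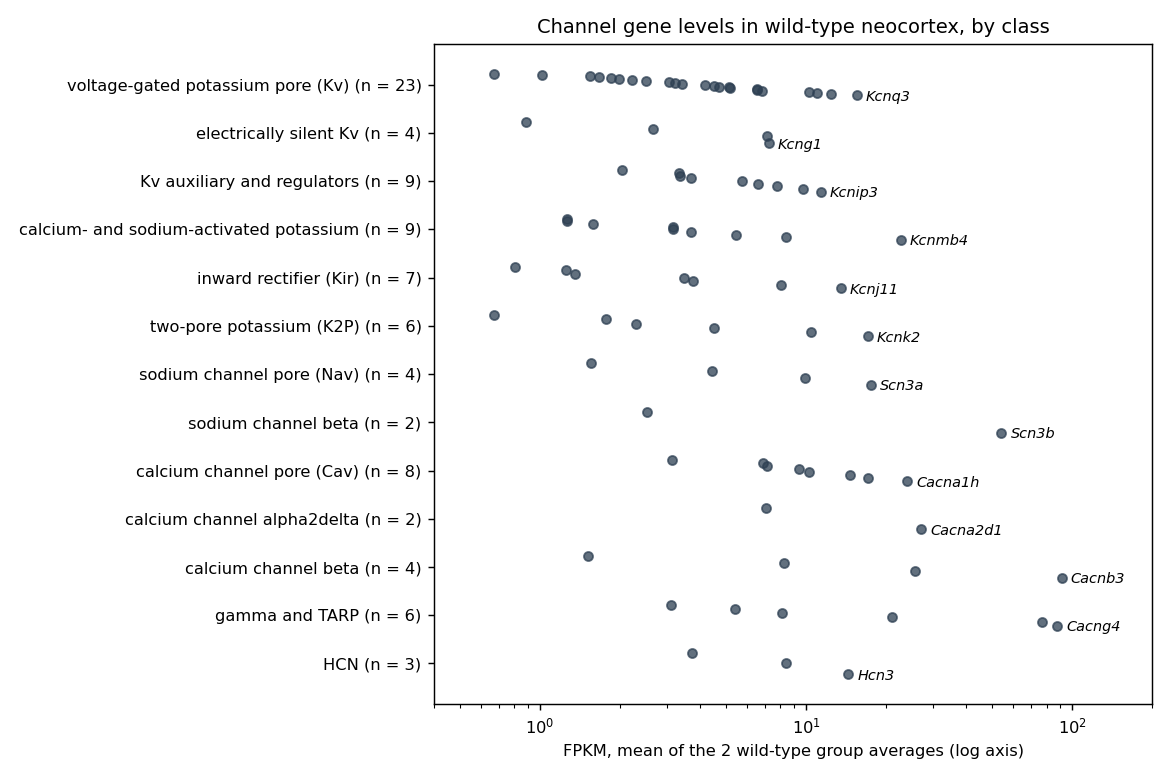
FPKM of 87 channel genes at 1 FPKM or more in any group, by class, on a log axis. Each point is the mean of the 2 wild-type group averages of 1 gene, and the highest gene drawn in each class is named. Auxiliary subunits such as Cacnb3 (89.4 FPKM in the Nfia-line wild types) stood above the pore genes.

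In the labelled Nfia knockouts, 12 of the 91 channel genes were higher and 5 lower at the deposited q of 0.05, and 74 did not pass. Over all genes at 1 FPKM or more, 3.85% passed that threshold by the authors' deposited table (2.66% higher, 1.19% lower), against 18.7% of the channel genes (13.2% higher, 5.49% lower). The higher members rose at least 1.59-fold and none reached 20 FPKM in any group. They came from 9 classes. Among them were inward rectifiers (Kcnj4, Kcnj6, Kcnj9), voltage-gated potassium pores (Kcnd2, Kcnh1), the silent subunit Kcnf1, the sodium-activated Kcnt1, the tandem pore Kcnk12, the T-type calcium pore Cacna1g and the TARP Cacng3. The median log2 fold of the 91 was 0.056, against -0.0088 over all genes at 1 FPKM or more.

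Among sodium channel pores, the sensory neuron gene Scn9a lay just outside the threshold, at 1.5 and 2.21 FPKM (the authors' deposited table gives a log2 fold of 0.55 at q = 0.0508). The abundant pores Scn3a and Scn8a had log2 folds of 0.20 (implied 95% interval -0.05 to 0.45) and -0.02 (-0.28 to 0.24) that did not pass (q = 0.738 and 0.999 in the authors' deposited table). The error behind these intervals was derived from each deposited fold and p-value under a normal distribution.

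Inward rectifiers moved both ways, with 3 higher, 3 lower and 1 not past the threshold of 7. Kcnj6 and Kcnj9, pore subunits of the G-protein-gated channels that inhibitory receptors open, rose from 0.746 to 1.5 FPKM and from 1.03 to 1.84 FPKM (the authors' deposited table gives log2 folds of 1.0 and 0.82 at q = 0.0163 and 0.0258). Kcnj3, a further G-protein-gated subunit and the second most abundant of the class, stood at 8.29 and 8.51 FPKM and did not pass (q = 0.999). Kcnj4, a strong inward rectifier of forebrain neurons, rose from 1.18 to 2.31 FPKM (the authors' deposited table gives a log2 fold of 0.96 at q = 0.0179). In all 3 the labelled Nfia knockouts were the highest of the 4 groups. The lower members were Kcnj2 (log2 fold -0.78), Kcnj10, the potassium-buffering channel of glia (-0.76), and Kcnj11, the pore of the ATP-sensitive channel (-0.47), with q of 0.00286, 0.00689 and 0.0440 in the authors' deposited table. Kcnj10 went from 3.17 to 1.88 FPKM, with 3.81 and 2.93 FPKM in Nfib-line wild types and knockouts. Of the 8 astrocyte markers 5 were tested there, 1 being higher (Slc1a2, 7.12 to 11.1 FPKM) and 1 lower (Bcan, 4.57 to 2.41 FPKM). All 8 summed to 71.7 and 69.4 FPKM, wild types first. Most of that sum was Aldoc, at 49.4 and 41.9 FPKM, which did not pass. The part of glia in the Kcnj10 result was not tested. Kcnj11 went from 14.9 to 10.8 FPKM, near the 12.1 FPKM of the Nfib-line wild types. Kcnj9 and Kcnj10, which moved in opposite directions, both lie on chromosome 1.

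Voltage-gated potassium pores gave 2 higher, 1 lower and 21 not past the threshold of 24. Kcnd2, which carries the fast transient A-type current of dendrites, rose from 5.44 to 9.0 FPKM (the authors' deposited table gives a log2 fold of 0.71 at q = 0.00286), with 7.63 and 6.73 FPKM in the Nfib line. Its relative Kcnd3, at 12.9 and 13.7 FPKM, had a log2 fold of 0.08 (implied 95% interval -0.22 to 0.38, q = 0.999 in the authors' deposited table). Kcnh1, a pore of the ether-a-go-go family, rose from 0.569 to 1.23 FPKM (the authors' deposited table gives a log2 fold of 1.10 at q = 0.00286), and stood at 0.772 and 0.420 FPKM in the Nfib line. The 4 groups of Kcnh1 thus ran from 0.420 FPKM in the Nfib knockouts to 1.23 FPKM in the labelled Nfia knockouts. The lower member Kcnq5 is described with the genes lower in both comparisons. The M-current subunit Kcnq3 had a log2 fold of -0.16 (implied 95% interval -0.44 to 0.12), which did not pass (q = 0.916 in the authors' deposited table).

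The remaining risers of this comparison were spread over several classes. Kcnt1, a potassium channel opened by intracellular sodium, rose from 2.65 to 5.18 FPKM (the authors' deposited table gives a log2 fold of 0.96 at q = 0.00286), against 3.69 and 2.46 FPKM in the Nfib line. Kcnf1, a subunit that forms no channel alone and modifies other potassium channels, rose from 2.23 to 3.95 FPKM (the authors' deposited table gives a log2 fold of 0.81 at q = 0.00286). Kcnk12, a tandem pore subunit, rose from 0.742 to 1.63 FPKM (the authors' deposited table gives a log2 fold of 1.12 at q = 0.0209). It also stood higher in the Nfib knockouts, at 1.26 against 0.597 FPKM, which did not pass (the authors' deposited table gives 1.10 on the log2 scale and q = 0.0744). Both wild-type groups of Kcnk12 lay under the labelled Nfia and the Nfib knockouts. Cacna1g, a T-type calcium pore, rose from 5.52 to 9.18 FPKM (the authors' deposited table gives a log2 fold of 0.72 at q = 0.00286), close to the 8.22 FPKM of the Nfib-line wild types. Cacng3, a TARP of excitatory synapses, rose from 4.93 to 7.92 FPKM (the authors' deposited table gives a log2 fold of 0.67 at q = 0.0258). The other 7 calcium channel pores, all 4 calcium channel beta subunits and all 4 HCN genes did not pass.

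In the Nfib knockouts, 5 of the 91 channel genes were higher and 10 lower at the deposited q of 0.05, and 76 did not pass. Over all genes at 1 FPKM or more, 5.47% passed by the authors' deposited table (2.23% higher, 3.23% lower), against 16.5% of the channel genes (5.49% higher, 11.0% lower). All 5 higher members were voltage-gated or silent potassium channel subunits: Kcnq3, Kcna3, Kcnh5, Kcng1 and Kcnv1. The lower ones included 3 of the 9 Kv auxiliary genes (Kcnip2, Kcnab1, Kcne1l) together with Kcnq5, Kcnj2, Kcnk1, Scn9a, Cacna2d3 and Cacng5. The median log2 fold of the 91 was -0.080, against 0.00081 over all genes at 1 FPKM or more. Higher members ranged from 1.49-fold to 2.28-fold and lower ones from 1.69-fold to 2.80-fold.

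Kcnq3, a subunit of the M-current channel, rose from 9.69 to 20.8 FPKM in the Nfib line (the authors' deposited table gives a log2 fold of 1.12 at q = 0.00207). The Nfia-line groups stood at 21.3 FPKM in wild types and 19.2 FPKM in labelled knockouts, so the Nfib-line wild types were the only low group. Kcna3, a delayed rectifier pore, rose from 5.14 to 11.6 FPKM (the authors' deposited table gives a log2 fold of 1.19 at q = 0.00207), with 8.47 and 9.54 FPKM in the Nfia line. Here the Nfib knockouts were the highest group as well as the Nfib-line wild types the lowest. Kcnh5, of the ether-a-go-go family, rose from 1.25 to 2.22 FPKM (the authors' deposited table gives a log2 fold of 0.85 at q = 0.0266), against 2.08 and 1.91 FPKM in the Nfia line. The silent subunits Kcng1 and Kcnv1 rose from 6.55 to 11.8 FPKM and from 6.27 to 9.18 FPKM (the authors' deposited table gives log2 folds of 0.87 and 0.57 at q = 0.00207 and 0.0181). Their Nfia-line levels were 7.91 and 8.32 FPKM for Kcng1 and 8.01 and 8.65 FPKM for Kcnv1, so the Nfib knockouts were the highest group for both.

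The auxiliary subunits that fell were partners of different pore families. Kcnip2, a calcium-binding partner of the A-type channels, fell from 8.38 to 4.65 FPKM (the authors' deposited table gives a log2 fold of -0.83 at q = 0.00532), while the Nfia-line groups stood at 7.18 and 8.04 FPKM. Its relatives Kcnip1 and Kcnip3 had log2 folds of -0.45 and -0.18 that did not pass (q = 0.192 and 0.845 in the authors' deposited table). Kcnab1, a cytoplasmic beta subunit of delayed rectifiers, fell from 3.61 to 2.09 FPKM (the authors' deposited table gives a log2 fold of -0.77 at q = 0.0259). Cacna2d3, an alpha2delta subunit that brings calcium channels to the membrane, fell from 8.57 to 3.19 FPKM (the authors' deposited table gives a log2 fold of -1.40 at q = 0.00207), with 5.56 and 7.74 FPKM in the Nfia line. Cacna2d3 overlaps the coding gene Lrtm1 in the RefSeq annotation, and the counting of strands is not given in the sources used here. Its abundant relative Cacna2d1, at 25.3 and 25.6 FPKM, had a log2 fold of 0.04 (implied 95% interval -0.24 to 0.31, q = 0.998 in the authors' deposited table). Cacng5, a further TARP, fell from 3.26 to 1.38 FPKM (the authors' deposited table gives a log2 fold of -1.22 at q = 0.00207), with 2.97 and 2.28 FPKM in the Nfia line. Cacng4, Cacng7 and Cacng8, the most abundant of the family, did not pass.

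Hcn3 and Hcn4, of the pacemaker channel family, had log2 folds of -0.25 (implied 95% interval -0.56 to 0.07) and 0.04 (-0.30 to 0.38), with q of 0.591 and 0.998 in the authors' deposited table. Kcnk1, a tandem pore leak channel found in neurons and glia, fell from 5.69 to 2.86 FPKM (the authors' deposited table gives a log2 fold of -0.97 at q = 0.00532), and the Nfia-line levels of 3.28 and 3.64 FPKM were nearer to the knockouts than to the Nfib-line wild types. Kcnk2, the most abundant tandem pore gene, stood at 17.6 and 12.4 FPKM, just outside the threshold (the authors' deposited table gives -0.48 on the log2 scale and q = 0.0559). Kcnk10, a further leak channel, was at 9.65 and 9.27 FPKM. Scn9a fell from 1.61 to 0.934 FPKM (the authors' deposited table gives a log2 fold of -0.76 at q = 0.0162). No calcium channel pore passed in the Nfib comparison, and the ion-activated class, led by Kcnmb4, a neuronal beta subunit of the large-conductance calcium-activated channel, had 0 of 9 past the threshold, with Kcnmb4 at 23.7 and 22.7 FPKM and Kcnn2 at 7.28 and 8.53 FPKM.

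**Figure D2:**
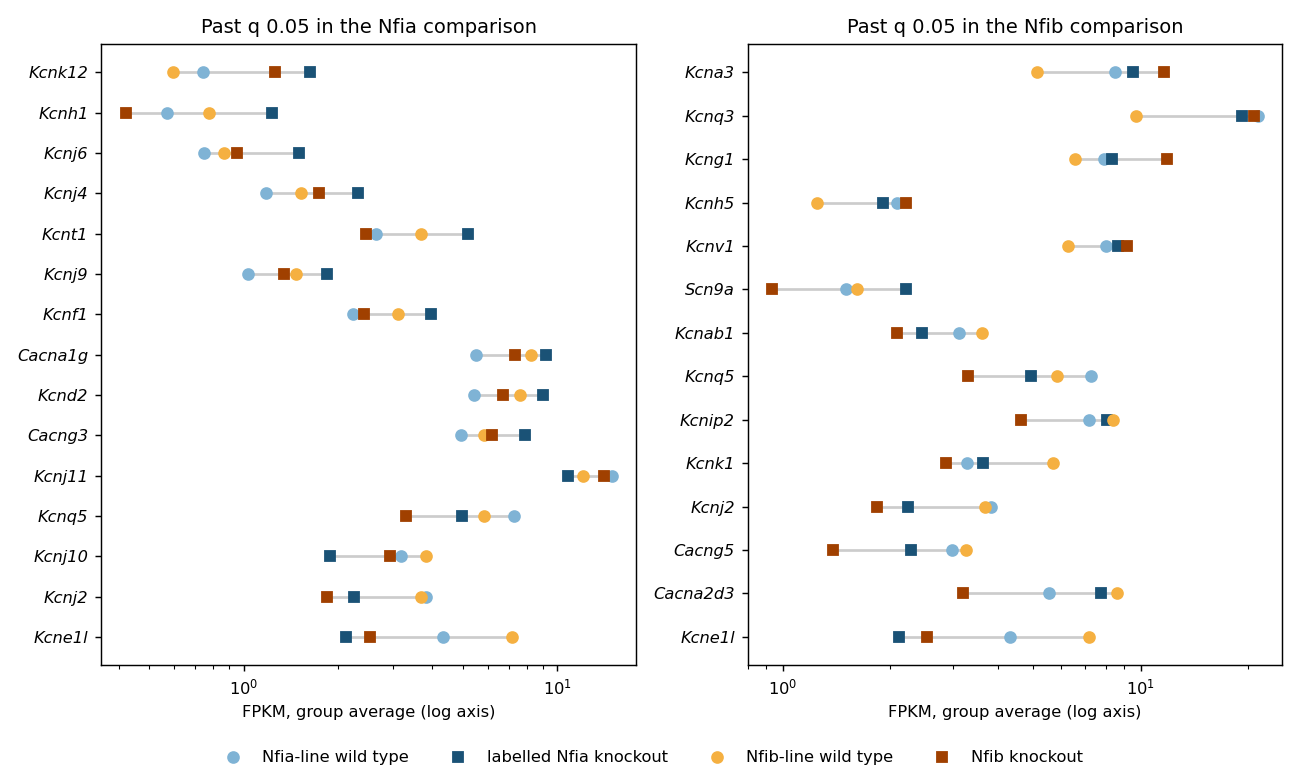
Group FPKM, on a log axis, of 15 channel genes past q 0.05 in the Nfia comparison (left) and 14 past it in the Nfib comparison (right), ordered by fold. Circles are wild types and squares the labelled Nfia and the Nfib knockouts, 1 authors' average each. For Kcnq3 the Nfib-line wild types (9.69 FPKM) stand apart from the other 3 groups, while for Kcnj2 the labelled Nfia and the Nfib knockouts lie under both wild types.

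The channel genes lower in both comparisons were Kcnj2, Kcnq5 and Kcne1l, 3.30% of the 91, against 0.416% of all genes at 1 FPKM or more. Kcnj2 stood at 3.81 and 3.68 FPKM in the Nfia-line and Nfib-line wild types and at 2.25 and 1.84 FPKM in the labelled Nfia and Nfib knockouts. The wild types of the lines nearly coincided, and the log2 folds were -0.78 and -0.98 (q = 0.00286 and 0.00207 in the authors' deposited table). Kcnq5 went from 7.27 to 4.96 FPKM in the Nfia line and from 5.83 to 3.29 FPKM in the Nfib line (the authors' deposited table gives log2 folds of -0.56 and -0.81 at q = 0.0104 and 0.00207). Kcne1l went from 4.33 to 2.12 FPKM and from 7.18 to 2.52 FPKM (the authors' deposited table gives log2 folds of -1.05 and -1.49 at q = 0.00689 and 0.00207). For each of the 3 genes the labelled Nfia and the Nfib knockouts lay under both wild-type groups. Kcne1l is on the X chromosome, and its level differed 1.66-fold between wild types that also differ in Xist. No channel gene was higher in both comparisons or called in opposite directions, where all genes at 1 FPKM or more gave 0.160% and 0.807%.

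Across the 91 members the folds of the 2 comparisons, which share no libraries, were not aligned (Pearson's r = 0.055, Spearman's rho = -0.12, across genes, which are not independent), and 55 (60.4%) had opposite signs. Over 12507 genes at 1 FPKM or more the correlations were -0.10 and -0.14, and 55.5% had opposite signs. Of the 12 members higher in the labelled Nfia knockouts, 8 had a negative and 4 a positive fold in the Nfib knockouts, and 0 of them passed there. Of all genes called higher in the labelled Nfia knockouts, 70.8% had a negative Nfib fold and 34.0% passed there in either direction. Of the 10 lower in the Nfib knockouts, 5 had a positive fold in the labelled Nfia knockouts, against 54.1% of all genes called lower in the Nfib knockouts. Of the Nfia risers, Kcnh1 and Kcnt1 had Nfib folds of -0.85 and -0.56 on the log2 scale (q = 0.0744 and 0.147 in the authors' deposited table). The difference between the comparisons was not tested.

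**Figure D3:**
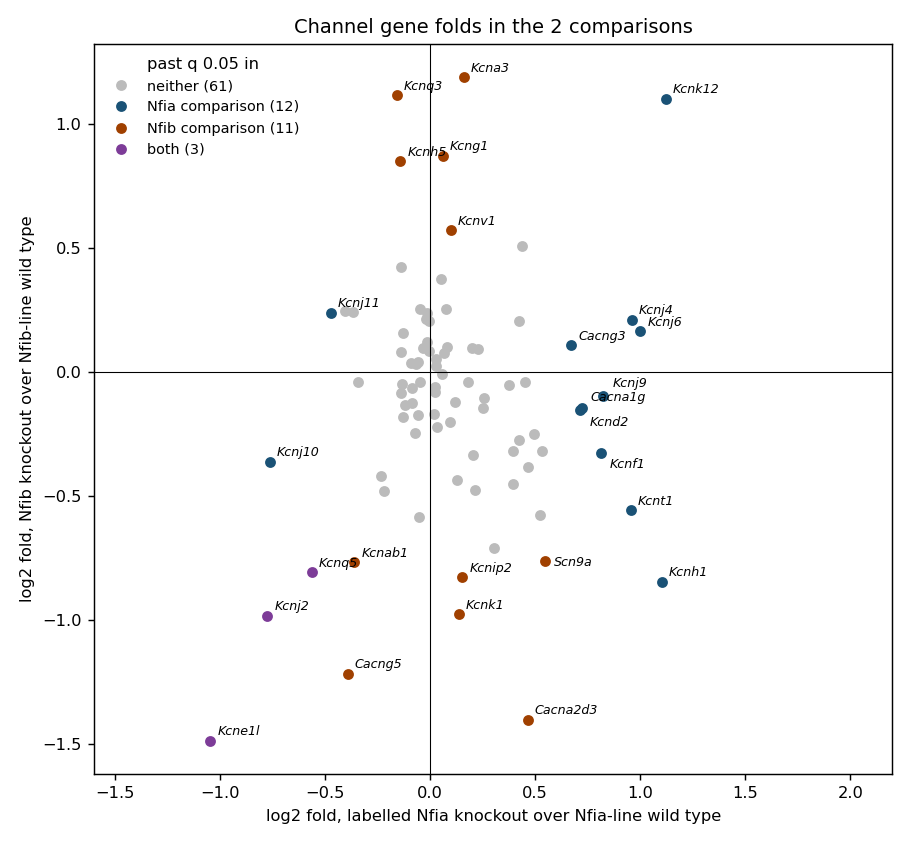
Deposited log2 fold of 87 channel genes in the Nfia comparison (horizontal) and the Nfib comparison (vertical), 1 point a gene, coloured by the comparison in which it passed q 0.05. Kcnj2, Kcnq5 and Kcne1l lie at the lower left, and the points show no common diagonal (Pearson's r = 0.055 over all 91).

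The wild-type groups themselves differed for some of these genes. At least a 1.5-fold gap between the 2 wild-type averages was seen for 10 of the 91, 11.0%, against 4.33% of all genes at 1 FPKM or more, with the widest gap for Kcnq3 (2.2-fold). Of the 12 Nfia risers, 11 had lower levels in their own than in the Nfib-line wild types, against 90.4% of all genes called higher there at 1 FPKM or more. For the Nfib risers this was 5 of 5 against 94.3%. Of the fallers, 3 of 5 in the Nfia comparison and 8 of 10 in the Nfib comparison had higher levels in their own wild types, against 68.5% and 91.9% of all genes called lower. These shares lie near the background. Set against the wild types of the other line, with 0.1 added to each FPKM, the median log2 fold of the Nfia risers went from 0.92 to 0.45 and that of the Nfib risers from 0.84 to 0.19. The Nfib fallers went from -0.97 to -0.69 and the Nfia fallers from -0.72 to -0.69.

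Gene by gene, the log2 ratios of the labelled Nfia knockouts to the Nfib-line wild types were 1.31 for Kcnk12, 0.74 for Kcnj6, 0.61 for Kcnh1 and 0.57 for Kcnj4. Smaller ratios were found for Kcnt1 (0.48), Cacng3 (0.43), Kcnf1 (0.34), Kcnj9 (0.31), Kcnd2 (0.24) and Cacna1g (0.16). All of the risers named so far in this paragraph stood above both wild-type groups. Of the lower genes Kcne1l (-1.72), Kcnj10 (-0.98) and Kcnj2 (-0.69) stayed far under the Nfib-line wild types, and Kcnq5 (-0.23) and Kcnj11 (-0.15) came nearer. The Nfib knockouts set against the Nfia-line wild types gave -1.12 for Kcnq5, -1.05 for Cacng5, -1.01 for Kcnj2, -0.78 for Cacna2d3, -0.76 for Kcne1l, -0.63 for Scn9a, -0.62 for Kcnip2 and -0.55 for Kcnab1, with Kcnk1 at -0.19. Among the Nfib risers Kcng1 was at 0.57, Kcna3 at 0.45, Kcnv1 at 0.19, Kcnh5 at 0.09 and Kcnq3 at -0.03. All 10 Nfib fallers and all 5 Nfia fallers lay under both wild-type groups, where 85.4% and 93.3% of all lower genes did. Of the risers, 11 of 12 in the Nfia and 4 of 5 in the Nfib comparison lay above both, where 86.8% and 90.7% of all higher genes did.

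**Figure D4:**
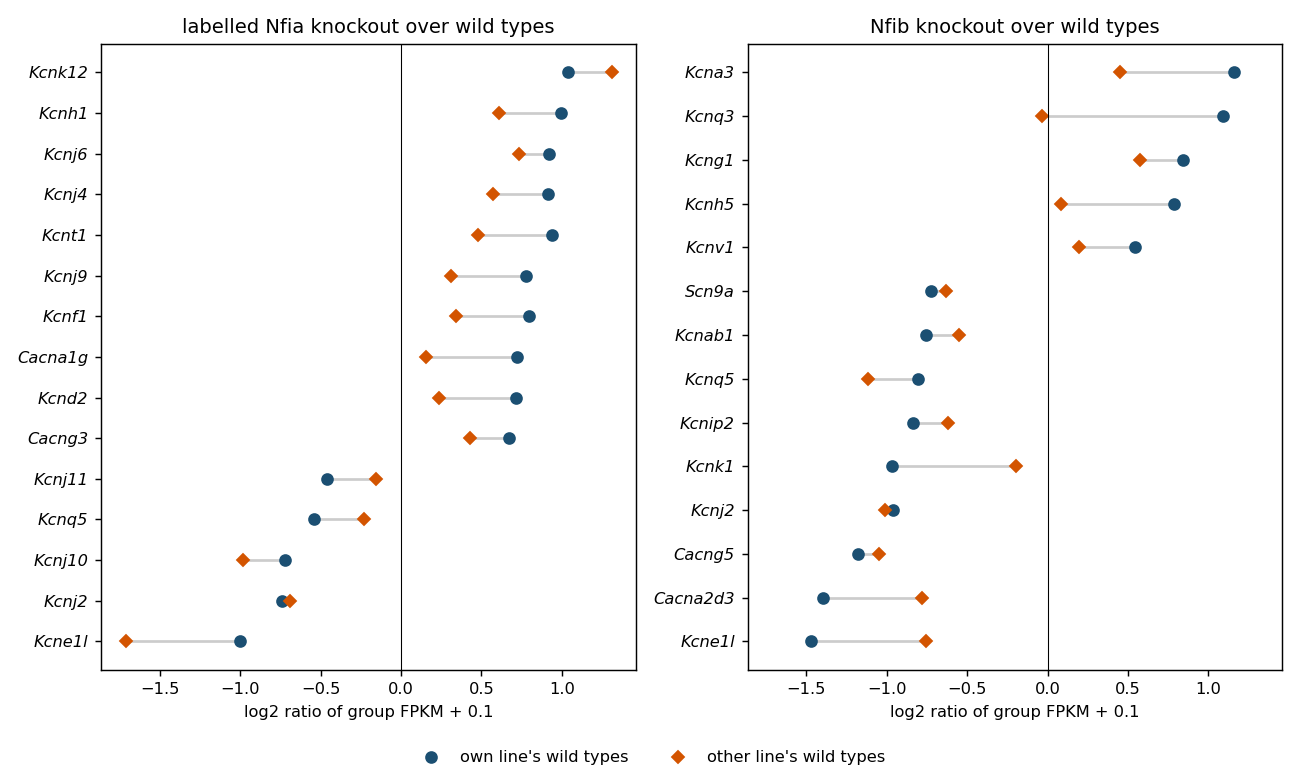
Log2 ratio of group FPKM (0.1 added) for the same 15 and 14 channel genes past q 0.05, labelled Nfia knockouts on the left and Nfib knockouts on the right, against the wild types of the same line (circles) and of the other line (diamonds). Kcnq3 (-0.03) reaches 0 against the other wild types, while Kcnj2 keeps nearly the same ratio.

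Genes that work with these channels were counted from a list of 61, all found in the table. In the labelled Nfia knockouts 10 of the 61 were higher and 1 lower, where 2.69% and 1.10% of all genes tested were. In the Nfib knockouts 1 was higher and 6 lower, where 2.13% and 3.26% of all genes tested were. These shares have no FPKM limit, since 60 of the 61 reached 1 FPKM and a gene under it is among the 10. Both dipeptidyl peptidase-like partners of the A-type channels rose in the labelled Nfia knockouts, Dpp10 from 5.80 to 8.75 FPKM and Dpp6 from 16.7 to 23.2 FPKM (the authors' deposited table gives log2 folds of 0.58 and 0.46 at q = 0.0134 and 0.0285), as did Kcnd2, the pore they bind. Pex5l, which traffics HCN channels, rose from 1.33 to 2.77 FPKM and Nalcn, the sodium leak pore, from 2.98 to 4.81 FPKM (the authors' deposited table gives log2 folds of 1.05 and 0.68). Cntnap2, which clusters potassium channels beside the node, rose from 17.0 to 28.2 FPKM (0.72 as a log2 fold in the authors' deposited table). Set against the Nfib-line wild types, with 0.1 added to each FPKM, the log2 ratios of these named genes were smaller. They were 0.24 for Dpp10, 0.12 for Dpp6, 0.46 for Pex5l, 0.52 for Nalcn and 0.52 for Cntnap2. The ratio was not smaller for every one of the 10 higher genes of the list. Of the axon initial segment and node list 2 of 16 were higher in that comparison and 1 higher and 3 lower in the Nfib comparison. Per the authors' deposited table the log2 fold of the higher one, the adhesion gene Nrcam, was 0.49, and those of the lower ones were -0.64 for Lgi1, -0.52 for Sptbn4 and -0.45 for Dlg2. Itpr1, the calcium release channel of the endoplasmic reticulum, was lower in both (the authors' deposited table gives -0.65 and -0.49 on the log2 scale). The fibroblast growth factor homologous factors of sodium channels and the calcium pump and exchange genes had 0 of 4 and 0 of 7 past the threshold in either comparison.

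The errors that follow from the deposited folds and p-values had medians of 0.21 log2 units for the 42 channel genes under 5 FPKM, 0.16 for the 37 up to 20 FPKM and 0.13 for the 12 above, in the Nfia comparison, and 0.25, 0.18 and 0.15 in the Nfib comparison. A member that did not pass is therefore not shown to be unchanged, least of all at low levels. At an unadjusted p under 0.05 the channel genes counted 29 and 28 of 91 in the 2 comparisons, 31.9% and 30.8%, against 9.72% and 13.2% of all genes at 1 FPKM or more. None of the 43 genes under 1 FPKM passed the threshold, 13 and 10 of them having been tested, and 11 of the 134 were listed at 0 in some group.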

How the data were processed

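Total RNA of microdissected embryonic day 16 neocortex was extracted with Trizol and sequenced from TruSeq libraries, per the labels' protocols. Per the submitters' processing notes, Cuffdiff 2.1.1, Cufflinks, TopHat2 2.0.10, CASAVA 1.8.2 and the build mm9 were used. Strand handling is not given in the sources used here. Per the file headers, the table holds weighted average FPKM for each group. For each line the authors also deposited a log2 fold (knockout over wild type), a p-value and a q-value. Fold cells hold spreadsheet errors in 1354 and 1378 rows. Rows with a p under 1, 13736 for Nfia and 13729 for Nfib, count as tested. The smallest p is 5e-05, shared by many genes, so the smallest q (0.00286 and 0.00207) does not rank them, and an implied error at that p is an upper limit.

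No test between groups was computed here: calls are the authors' q at 0.05 over all genes. Members, classes, related genes and markers were chosen with earlier results of these data known. The rule for naming took all members past the threshold and the 2 highest in each of the 13 classes, of which some are counted but not reported here by name; Kcnd3 and Cacng8 were added as relatives of these after their values were seen. Promoter sequences and chromosomes came from RefSeq tables of GRCm38.p6, matched by symbol, 134 of 134 for chromosomes. Ratios against other wild types used log2(FPKM + 0.1). Tools were matplotlib 3.10.9, scipy 1.17.1, pandas 2.3.3, numpy 2.4.6 and Python 3.11.15. Alternatives were other thresholds, filters, pseudocounts and wild types.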

Additional observations from a re-analysis of the deposited data

How the results depend on the processing

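The counts of channel genes past the threshold moved by over 1.5 times under some settings. At q 0.01 the Nfia comparison gave 10 (7 higher, 3 lower) in place of 17, and the Nfib comparison 3 higher in place of 5. Among members at 5 FPKM or more the Nfia comparison gave 7 (4 higher, 3 lower), and the Nfib comparison 9, of which 5 lower, in place of 15 and 10. With at least a 1.5-fold change required as well, 3 members were lower in the Nfia comparison. All other counts, including q 0.1, all tested members and, chosen after seeing the data, autosomal members, stayed within 1.5 times. The median log2 fold of the members, 0.056 in the Nfia comparison, was 0.070 over all tested members, 0.025 at 5 FPKM or more, 0.11 against the other line's wild types and 0.12 against pooled wild types. In the Nfib comparison it was -0.080, and -0.082, -0.040, -0.11 and -0.094 in the same order. Among single genes, the fold of Kcnq3 in the Nfib comparison came to -0.034 against the other line's wild types, reversed in sign; the cause was not tested. With a pseudocount of 0.1 or 1, or pooled wild types, 0 of the 29 called folds examined changed sign, but many moved by more than their implied error. These were 7 of 15 Nfia and 4 of 14 Nfib folds with a pseudocount of 1, 9 and 5 against pooled wild types, and 12 and 9 against the other line's. The fold of Kcnh1 in the Nfia comparison went from 1.10 to 0.51 with a pseudocount of 1. No paired analysis was possible because the table holds 1 average per group, and leaving out single replicates was not possible for the same reason. Depth is unknown, so low members cannot be given a detection limit.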
